A study of Rattus norvegicus with 6 samples.

Results

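The 10 genes described here encode myeloid C-type lectin receptors, and all 10 were taken by symbol from the deposited gene count table (Clec4a, Clec4a1, Clec4a3, Clec4d, Clec4e, Clec5a, Clec7a, Clec9a, Clec10a and Clec12a, of 19780 symbols). All 10 were found after rows sharing a symbol had been summed, and all 10 passed the filter on low counts. The libraries came from pancreas of wild type male Sprague-Dawley rats, 8 weeks old at purchase, in 2 groups of 3 samples, acute pancreatitis (AP) induced by intraperitoneal L-arginine, an amino acid that in excess injures the exocrine pancreas, and controls given intraperitoneal saline. For the AP group the sample labels give 5 mg/kg and 36 hours, while the study's design text gives 2 doses of 2.5 g/kg and 48 hours, and nothing in the labels decides between them. Whether the 6 samples came from 6 animals is not stated in the labels; the spread behind each p-value is that between samples and may be technical. The model is a chemically induced injury of the whole organ, and the tissue was sequenced in bulk.

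C-type lectin receptors of myeloid cells sit on macrophages, monocytes, dendritic cells and neutrophils and bind sugars, lipids or molecules released by dying cells. Some activate the kinase Syk, either through a tyrosine motif in their own tail (Dectin-1, encoded by Clec7a, and DNGR-1, encoded by Clec9a) or through the paired adaptors FcRγ and DAP12 (Mincle, MCL and MDL-1, encoded by Clec4e, Clec4d and Clec5a). Others carry an inhibitory tyrosine motif and recruit phosphatases (DCIR, encoded by Clec4a, and MICL, encoded by Clec12a). Most of the genes lie in clusters, and in the rat 9 of the 10 are on chromosome 4 (Clec10a is on chromosome 10).

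Because the genes moved together, the 250 bases before each RefSeq start were searched on both strands for GAGGAA, a purine-rich core of sites for PU.1, a transcription factor of myeloid cells. A window was found for 9 of the 10 receptors. The letters occurred in 6 of these 9 (Clec4a, Clec4a1, Clec4a3, Clec4d, Clec4e and Clec12a), against 23.3% of all 33469 windows, and a match is a description, not a binding site. The C/EBP core TTGCNNAA was found in Clec4e and Clec12a (9.22% of all windows) and the AP-1 core TGANTCA in Clec12a (6.34%). The windows of Clec5a, Clec7a and Clec9a held none of the 3, so both the receptor with the smallest fold change and the one with the largest were without a match. Below, the windows of Clec12a and Clec4e are shown for their several matches. That of Clec9a is an example of a window with none of the 3 motifs. Those of Clec4a and its neighbour Clec4a2 are shown as the pair most alike among those compared. Sequences are from RefSeq, assembly GRCr8, 5′ to 3′ on the strand of the gene, and capitals mark GAGGAA or its reverse complement TTCCTC.
Clec12a, chr4:164483912-164484161, plus strand: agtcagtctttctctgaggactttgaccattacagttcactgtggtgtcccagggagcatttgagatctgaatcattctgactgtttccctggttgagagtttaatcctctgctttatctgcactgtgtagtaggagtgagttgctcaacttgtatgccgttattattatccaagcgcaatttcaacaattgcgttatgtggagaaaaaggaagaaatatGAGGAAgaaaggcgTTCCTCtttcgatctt
Clec4e, chr4:158298468-158298717, minus strand: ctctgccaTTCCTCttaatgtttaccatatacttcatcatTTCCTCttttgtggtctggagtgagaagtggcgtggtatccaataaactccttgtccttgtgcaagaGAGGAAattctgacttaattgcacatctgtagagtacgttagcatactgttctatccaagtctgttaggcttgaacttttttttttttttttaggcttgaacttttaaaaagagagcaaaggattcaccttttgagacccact
Clec9a, chr4:164546073-164546322, plus strand: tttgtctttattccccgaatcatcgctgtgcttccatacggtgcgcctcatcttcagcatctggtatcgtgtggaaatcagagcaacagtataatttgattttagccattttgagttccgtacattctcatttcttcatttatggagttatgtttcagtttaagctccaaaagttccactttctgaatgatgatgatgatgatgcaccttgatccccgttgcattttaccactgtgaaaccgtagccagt
Clec4a, chr4:158100365-158100614, plus strand: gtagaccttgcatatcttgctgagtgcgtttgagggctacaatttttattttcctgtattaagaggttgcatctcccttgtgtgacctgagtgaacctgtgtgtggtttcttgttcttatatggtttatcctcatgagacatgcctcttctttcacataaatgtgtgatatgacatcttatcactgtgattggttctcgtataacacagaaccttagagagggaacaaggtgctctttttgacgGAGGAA
Clec4a2, chr4:157934346-157934595, plus strand: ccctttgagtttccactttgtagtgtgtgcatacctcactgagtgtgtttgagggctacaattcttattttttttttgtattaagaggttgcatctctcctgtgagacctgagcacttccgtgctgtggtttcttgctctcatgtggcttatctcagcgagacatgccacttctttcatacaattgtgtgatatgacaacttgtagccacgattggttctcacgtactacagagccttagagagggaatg
The windows of Clec4a and Clec4a2 were identical at 184 of 226 aligned bases (81.4%). The other pairs compared, aligned in the same way, ran from 56.1% (Clec4a and Clec4b2) to 71.1% (Clec4a3 and Clec4e). These windows lie before the start and are not transcribed sequence. The sources used here do not give how reads with several matches were counted, and the transcripts of the DCIR relatives were not compared, so whether their counts share reads was not tested.

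Transcripts of all 10 receptors rose in AP pancreas. The lowest AP library lay above the highest control library for every receptor. Fold changes from edgeR's quasi-likelihood test ran from 2.99-fold for Clec9a to 69.8-fold for Clec7a, with a median log2 fold change of 4.82. Of all 13240 tested genes, 34.1% were called higher and 30.5% lower at an adjusted p of 0.05, and the median log2 fold change was 0.07. All AP libraries lay above all control libraries in 37.8% of tested genes, and 4.37% were called higher by at least 16-fold, as were 8 of the 10 receptors.

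Depth was similar in all libraries, at 17404247 to 18961353 counts in AP samples and 14453584 to 18196636 in control samples. The 9 listed acinar genes, which mark the exocrine cells of pancreas, took 0.606%, 0.648% and 4.46% of named counts in AP replicates 1 to 3, against 32.7%, 35.3% and 33.3% in control replicates 1 to 3. All 9 fell, among them the amylase gene Amy2a3 (log2 fold change -7.48 ± 0.822), the colipase gene Clps (-6.64 ± 0.929) and Bhlha15, a transcription factor gene of acinar cells (-6.04 ± 0.959). The acinar share was highest within AP in replicate 3. Values that follow are counts scaled to a common library size (CPM) with the TMM method, which centres on the middle of the tested genes. Scaled by library totals alone, the median of all genes moved by 2.17 on the log2 scale, and each receptor was again called higher, with log2 fold changes of 3.75 to 8.30 (88.2% of tested genes higher, 4.33% lower). In bulk tissue, more cells of a type and more RNA per cell cannot be told apart.

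Clec7a, whose product Dectin-1 binds fungal beta-glucan and signals through Syk, had 114, 65.7 and 78.9 normalised CPM in AP replicates 1 to 3, against 0.993, 0.758 and 2.09 in control replicates 1 to 3. AP replicate 1 was highest in its group, and the groups lay far apart. The log2 fold change was 6.13 ± 0.351 (SE, n = 3 per group, edgeR adjusted p = 2.58e-06). It was the highest of the 10 by less than its SE, and Clec4a3 was higher without AP replicate 1 (5.87 for Clec7a, 6.10 for Clec4a3) or control replicate 2 (5.85 for Clec7a, 6.44 for Clec4a3).

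Clec9a stood at the other end of the range. Its product DNGR-1 recognises actin filaments exposed by dead cells and marks type 1 conventional dendritic cells. It had 3.35, 9.05 and 3.18 normalised CPM in AP replicates 1 to 3, against 1.74, 2.27 and 1.12 in control replicates 1 to 3. AP replicate 2 was the highest, and the other AP libraries lay close above the highest control library. The rise was 1.58 ± 0.513 on the log2 scale (edgeR adjusted p = 0.0249). That call ended with limma-voom (adjusted p = 0.155) and without AP replicate 2 (0.91, adjusted p = 0.0814), control replicate 1 (1.58, 0.0682) or control replicate 3 (1.38, 0.0839).

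Other markers of type 1 dendritic cells moved unevenly. Of 8 tested genes of that list, 5 were called higher and none lower, with a median log2 fold change of 1.09, while relative to leukocyte RNA (described further on) 7 were lower, as were 93.3% of all tested genes. Irf8, a transcription factor that other myeloid and B cells also use, had 119, 120.0 and 122 normalised CPM in AP libraries, against 14.8, 10.9 and 7.39 in control libraries. Batf3 and Cadm1 rose as well (log2 fold changes of 4.32 ± 0.671 and 1.25 ± 0.188). Xcr1, the chemokine receptor most closely tied to these cells, had 10, 52 and 13 counts in AP libraries, against 4, 4 and 9 in control libraries (log2 fold change -0.28 ± 0.781, adjusted p = 0.767). Within AP, replicate 2 was highest for Xcr1 as for Clec9a. In normalised CPM, however, Xcr1 was highest in control replicate 3 (1.45, against 1.29 in AP replicate 2).

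The receptors that couple to FcRγ or DAP12 were scarce in control tissue. Clec4e encodes Mincle, which binds mycobacterial glycolipid and SAP130, a nuclear protein released by dying cells. It had 362, 225 and 140 counts in AP replicates 1 to 3, while control replicates 1 and 2 had none and control replicate 3 had 8. The control level thus rests on a single library. edgeR gave a log2 fold change of 4.05 ± 0.871 (adjusted p = 0.00352) and limma-voom 5.10. Leaving out control replicate 1 gave 3.41 and leaving out control replicate 2 gave 3.42. With control replicate 3 left out, the controls had no count, and the rise was at least 33.7-fold if 3 counts are taken as the floor of the control group. Floors and counting intervals cover counting error only.

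Clec4d encodes MCL, a receptor that pairs with Mincle and lies beside it. It had 14.6, 8.75 and 4.0 normalised CPM in AP replicates 1 to 3, against 0.496, 0 and 0.642 in control replicates 1 to 3. AP replicate 1 had 3.64 times the level of AP replicate 3, the largest such ratio of the 10 receptors, while the coefficient of variation within AP was larger for Clec9a (64.4%) than for Clec4d (58.1%). Clec4d rose by 4.63 ± 0.765 on the log2 scale (adjusted p = 0.000825), and by 4.01 without control replicate 2.

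Clec5a encodes MDL-1, which signals through DAP12 and binds dengue virus. It had 111, 55 and 54 counts in AP libraries, against 4, 0 and 3 in control libraries. AP replicate 1 was highest, and no control library reached an AP library. Clec5a rose by 2.56 ± 0.711 on the log2 scale (adjusted p = 0.0125), and by 1.95 without control replicate 2. From the pooled counts, scaled by effective library size, the ratio was 6.08, with an exact 95% counting interval of 2.90 to 15.3.

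**Figure D1:**
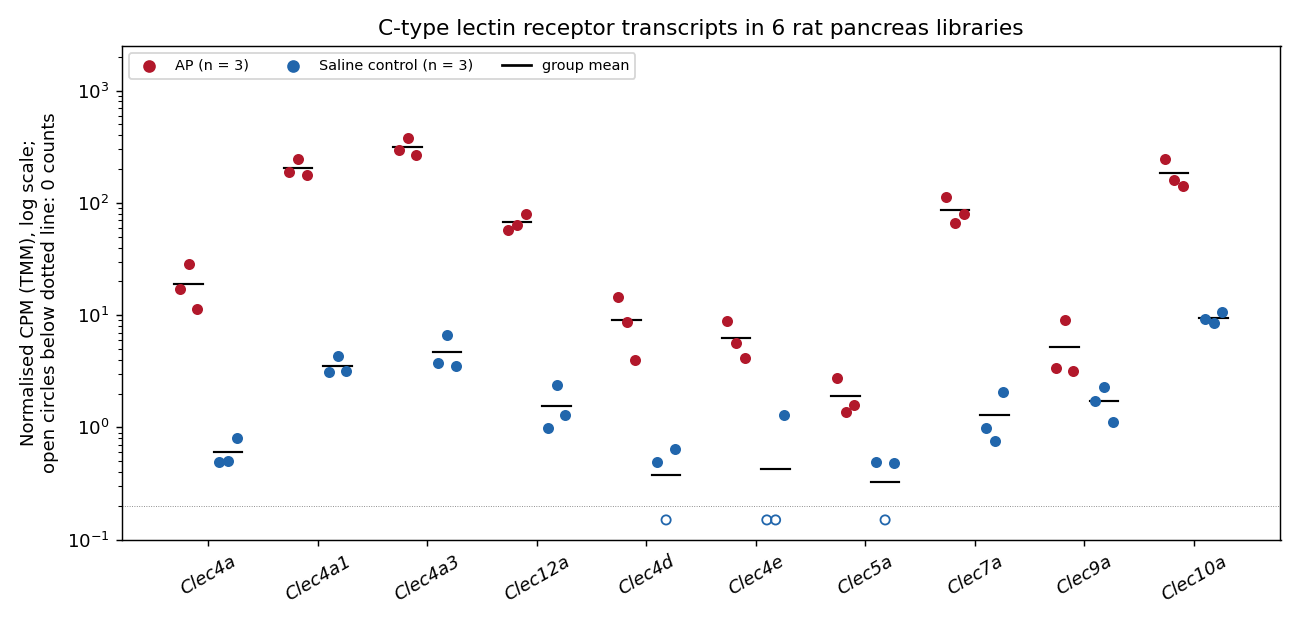
Normalised CPM (TMM, log axis) of the 10 receptor genes in each of the 3 AP (left, red) and 3 saline control (right, blue) libraries, with bars at the group means and open circles for libraries with 0 counts. No AP point reaches down to a control point of the same gene, and the gap is narrowest for Clec9a (3.18 in the lowest AP library, 2.27 in the highest control library).

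Inhibitory receptors rose as well. Clec12a encodes MICL, which carries an inhibitory motif and binds uric acid crystals. It had 56.9, 63.8 and 80.3 normalised CPM in AP replicates 1 to 3, against 0.993, 2.40 and 1.28 in control replicates 1 to 3. It was the only receptor with its highest level in AP replicate 3. The log2 fold change was 5.41 ± 0.283 (adjusted p = 1.85e-06).

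Clec4a encodes DCIR, the founding receptor of its group, with an inhibitory motif known from the human and mouse proteins. Whether the rat protein carries the motif was not checked here. It had 17.0, 28.7 and 11.4 normalised CPM in AP replicates 1 to 3, against 0.496, 0.505 and 0.803 in control replicates 1 to 3. AP replicate 2 was highest, at 2.52 times AP replicate 3. Its log2 fold change was 5.00 ± 0.478 (adjusted p = 3.50e-05).

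Clec4a3 and Clec4a1 are the DCIR relatives that the RefSeq table also names Dcir3 and Dcir4. Clec4a3 had 299, 379 and 267 normalised CPM in AP replicates 1 to 3, against 3.72, 6.69 and 3.53 in control replicates 1 to 3 (log2 fold change 6.07 ± 0.284, adjusted p = 1.20e-06). Clec4a1 had 190, 246 and 179 in AP, against 3.10, 4.29 and 3.21 in controls (5.85 ± 0.210, adjusted p = 6.84e-07). Both were highest in replicate 2 of either group, as was Clec4a2 in AP (38.3 ± 14.2 normalised CPM in AP and 0.465 ± 0.200 in controls, log2 fold change 6.39 ± 0.418), a DCIR relative between Clec4a3 and Clec4a that is not among the 10.

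Clec10a encodes MGL, a lectin of macrophages and dendritic cells that binds galactose and N-acetylgalactosamine and takes up glycoproteins. It had 245, 162 and 143 normalised CPM in AP replicates 1 to 3, against 9.31, 8.59 and 10.6 in control replicates 1 to 3. Control libraries were alike, and AP replicate 1 stood above the other AP libraries. Clec10a rose by 4.27 ± 0.240 on the log2 scale (adjusted p = 2.38e-06).

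The make-up of the receptor counts was taken within each library, a measure that needs no scaling. The 10 genes together held 38600, 39005 and 26237 counts in AP replicates 1 to 3, against 172, 202 and 156 in control replicates 1 to 3. As CPM of all named genes, without TMM scaling, this was 1918 ± 329 in AP and 11.3 ± 1.13 in controls (SD, n = 3 each, two-sided exact permutation p = 0.1, the smallest that 3 against 3 allows). Shares of counts compare libraries, not genes, since longer transcripts give more reads.

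Clec10a took 20.3% ± 4.82 of the receptor counts in AP, against 39.9% ± 5.40 in controls. Clec9a took 0.566% ± 0.320 in AP, against 7.18% ± 2.36 in controls. The shares of Clec4a3 (35% ± 3.88 in AP, 19.3% ± 6.27 in controls) and Clec4a1 (22.8% ± 2.70 in AP, 14.7% ± 2.01 in controls) were larger in AP. For these 4 genes the groups did not overlap (exact permutation p = 0.1 each, adjusted p = 0.25 over the 10 shares). The shares of the other 6 overlapped between the groups. None of the 10 shares could pass the threshold in a design of this size.

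**Figure D2:**
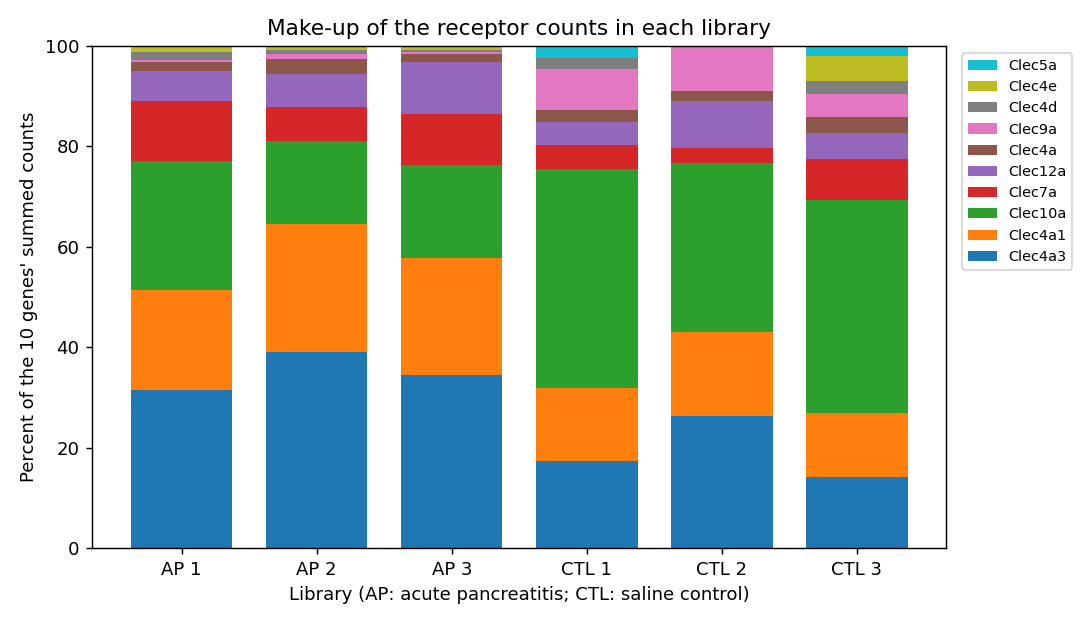
Percent of the 10 genes' summed counts taken by each gene in every library, AP left and saline control (CTL) right. Clec10a holds 16.7% to 25.8% in AP and 33.7% to 43.6% in control libraries, and Clec9a under 1% in AP against 4.49% to 8.91% in control libraries.

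Activating and inhibitory receptors were set against each other within each library. The summed counts of Clec4d, Clec4e, Clec5a, Clec7a and Clec9a over those of Clec4a and Clec12a gave ratios of 1.94, 0.979 and 1.0 in AP and 2.50, 1.04 and 2.69 in controls (exact permutation p = 0.2). The groups overlapped. Without Clec7a, which held most of the activating counts in AP, the ratios were 0.400, 0.268 and 0.140 in AP. In controls they were 1.83, 0.783 and 1.69, with no overlap between the groups (exact permutation p = 0.1). These control ratios rest on few counts. Clec9a had 14, 18 and 7 counts in control replicates 1 to 3. Clec4d, Clec4e and Clec5a each had at most 8 in any control library and none in control replicate 2. Clec4a had 4, 4 and 5, and Clec12a 8, 19 and 8. With Clec9a left out as well as Clec7a, control replicate 2 held no activating count and lay below every AP library. The separation thus did not hold without Clec9a.

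Leukocyte transcripts rose with the receptors. A list of 5 pan-leukocyte genes (Ptprc, Itgb2, Coro1a, Laptm5 and Cd53) summed to 959 ± 132 normalised CPM in AP and 38.5 ± 4.96 in controls (SD, n = 3 each), and all 5 were called higher (median log2 fold change 4.58). With the counts of these 5 genes as library size, edgeR tested each receptor relative to leukocyte RNA. That scaling was chosen after the data had been seen. It put 93.3% of tested genes lower in AP and 0.718% higher, with a median log2 fold change of -4.55.

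Relative to the pan-leukocyte list, 4 receptors were higher, 2 were lower and 4 were not called. Clec7a (log2 difference 1.51 ± 0.441, adjusted p = 0.00318), Clec4a3 (1.45 ± 0.250, adjusted p = 1.76e-05) and Clec4a1 (1.22 ± 0.252, adjusted p = 0.000138) were higher, and stayed called when any 1 library was left out. The 5 list genes themselves ran from -0.38 to 0.95 on this scale, and Itgb2, the highest, was itself called higher (0.95 ± 0.276, adjusted p = 0.0032). Of 10 monocyte and macrophage genes 4 were higher and 1 was lower on it, against 0.718% and 93.3% of all tested genes. Clec12a was higher at 0.82 ± 0.364 (adjusted p = 0.0399), and that call ended without control replicate 1 (adjusted p = 0.154), control replicate 3 (0.0723), AP replicate 1 (0.0591) or AP replicate 3 (0.178).

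Clec9a was lower relative to leukocyte RNA, by a log2 difference of -3.09 ± 0.496 (adjusted p = 7.64e-06), in every fit that left out 1 library. Clec5a was lower at -2.03 ± 0.898 (adjusted p = 0.0388), a call that ended without control replicate 1 (-1.44, adjusted p = 0.253), control replicate 3 (0.15) or AP replicate 2 (0.093), while without control replicate 2 it stood at -2.73. The differences of Clec4a (0.34 ± 0.529), Clec4d (0.03 ± 0.820), Clec4e (-0.59 ± 0.942) and Clec10a (-0.34 ± 0.284) did not pass the test, which does not show them to be equal, and Clec10a was called lower without AP replicate 1 (-0.73, adjusted p = 0.0188). With 1 library left out, Clec4d stood between -0.68 (without control replicate 2) and 0.63 (without control replicate 3), and at -0.66 without AP replicate 1. Clec4e moved to -1.22 when control replicate 1 was dropped and to -1.31 when control replicate 2 was, and none of these passed the test. The AP libraries held 34445, 44454 and 31393 counts of the pan-leukocyte list, and the control libraries only 293, 350 and 218.

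**Figure D3:**
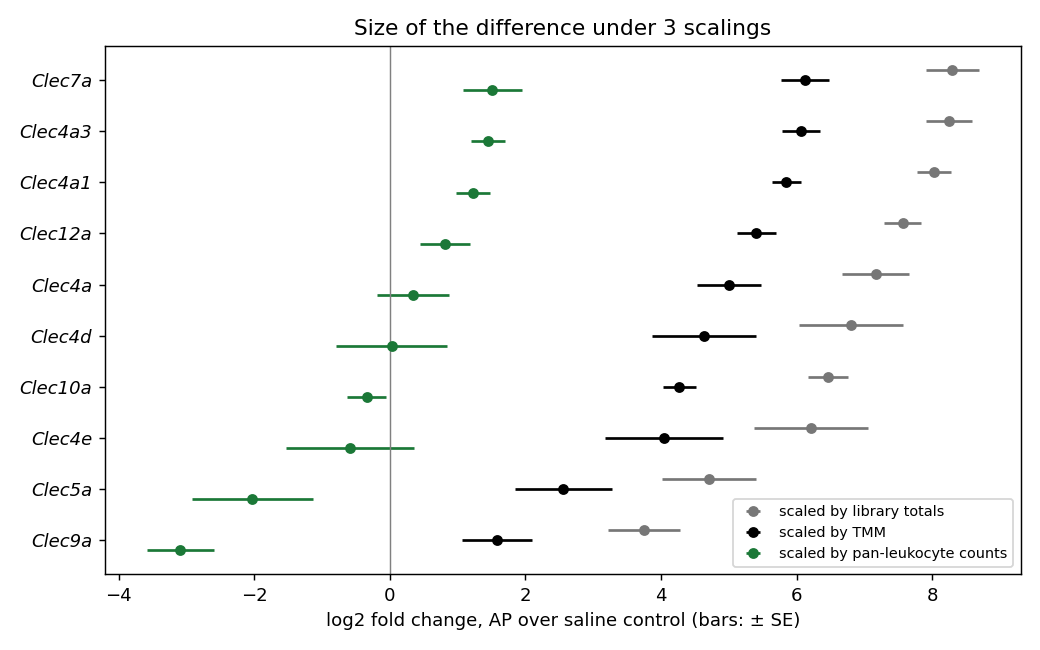
log2 fold change of each receptor, AP over saline control, with bars of 1 SE, scaled by library totals, by TMM and by pan-leukocyte counts. Every receptor lies right of 0 with library totals and TMM, while with pan-leukocyte counts Clec7a, Clec4a3 and Clec4a1 lie above 1 and Clec9a lies below -3.

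Set against a list of 10 monocyte and macrophage genes instead, Clec4a3 (0.77 ± 0.271, adjusted p = 0.0188) and Clec4a1 (0.56 ± 0.230, adjusted p = 0.0386) remained called as higher and Clec9a (-3.73) and Clec5a (-2.71) as lower. Clec7a did not pass (0.85, adjusted p = 0.0556), nor did Clec12a (0.12, adjusted p = 0.736), and Clec10a was lower (-1.01 ± 0.239, adjusted p = 0.00199). On this scale the median log2 fold change of all tested genes was -5.22, below each receptor called lower. Lyz2, the lysozyme gene, made up 70.2% of the counts of that list in AP and 44.0% in controls. The summed receptor counts were 0.181, 0.179 and 0.144 per count of the list in AP, against 0.174, 0.190 and 0.162 in controls (exact permutation p = 0.7), which overlapped. Per pan-leukocyte count they were 1.12, 0.877 and 0.836 in AP, against 0.587, 0.577 and 0.716 in controls (exact permutation p = 0.1), without overlap.

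Cell types that could carry these receptors were represented unevenly. All 10 monocyte and macrophage genes were called higher, among them the chemokine receptor gene Ccr2 (5.51 ± 0.190), the Fc receptor gene Fcgr1a (5.15 ± 0.192) and Lyz2 (5.96 ± 0.277), and the list summed to 5252 to 5403 normalised CPM in AP, against 123 to 155 in controls. Of 10 neutrophil genes 5 were tested and all 5 rose, with the list at 62.6 to 146 in AP, against 2.61 to 4.04 in controls. Csf3r rose by 7.64 ± 0.427 on the log2 scale, Cxcr2 by 5.19 ± 0.465 and S100a8 by 4.83 ± 0.657. The granule genes Mpo, Elane, Ltf, Camp and Ngp were at 0 to 12 counts in every library. The neutrophil list was at 146, 62.6 and 99.6 in AP replicates 1 to 3. Clec4d, Clec4e, Clec5a, Clec7a and Clec10a were likewise highest in AP replicate 1, but Clec4d, Clec4e and Clec10a were lowest in AP replicate 3, where the list was not. The part of neutrophils in these values was not tested. Lymphocyte genes summed to 9.17 to 27.4 normalised CPM in AP, against 1.45 to 4.67 in controls, and mast cell genes to 1.18 to 4.87 in AP, against 1.99 to 4.82 in controls. The T cell gene Cd3e rose by 3.12 ± 0.667, and the B cell genes Cd79a and Ms4a1, with no control count, by at least 11.6-fold and 7.09-fold. The mast cell protease gene Cpa3 was not called (-0.53 ± 0.711, adjusted p = 0.533).

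Adaptors and kinases of receptor signalling rose with the receptors. Of 13 tested genes 11 were called higher and none lower, with a median log2 fold change of 3.15, while relative to leukocyte RNA none was higher and 7 were lower (0.718% and 93.3% of all tested genes). Fcer1g, which encodes FcRγ, rose to 213 ± 32.8 normalised CPM in AP against 7.12 ± 1.75 in controls (log2 fold change 4.91 ± 0.218). Tyrobp, which encodes DAP12, rose by 5.14 ± 0.157 and Syk by 5.22 ± 0.298. The exchange factor gene Vav3 rose by 3.75 ± 0.207, whereas Malt1 (0.10 ± 0.208, adjusted p = 0.694) was not called. Bcl10, the partner of Malt1, rose by 0.50 ± 0.124. Plcg2 rose by 5.04 ± 0.328, Vav1 by 4.86 ± 0.328, the adaptor gene Hcst by 3.15 ± 0.504, and the kinase genes Lyn, Prkcd and Src by 2.71 ± 0.177, 2.51 ± 0.216 and 2.47 ± 0.215.

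Card9, which links Syk to Bcl10 and Malt1 in myeloid cells, had 1, 2 and 0 counts in AP libraries and none in control libraries. It was the only gene of that list below the filter, and with both groups at or under the floor no fold is given. Of the phosphatases that inhibitory receptors recruit, all 3 rose, and relative to leukocyte RNA all 3 were lower, as were 93.3% of all tested genes. Inpp5d, which encodes SHIP-1, rose by 3.66 ± 0.255, Ptpn6 (SHP-1) by 1.89 ± 0.171 and Ptpn11 (SHP-2) by 0.46 ± 0.105.

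Genes of proposed self ligands were measured in the same libraries. Sap130, which encodes the Mincle ligand, was not called (23.4 normalised CPM in AP and 17.2 in controls, log2 fold change 0.44 ± 0.194, adjusted p = 0.0757). The actin genes Actb (3.01 ± 0.260) and Actg1 (3.52 ± 0.212), whose filaments DNGR-1 binds, rose, as did Vim (4.05 ± 0.230) and Lgals9 (1.47 ± 0.398). Relative to leukocyte RNA all 5 of these ligand genes were lower, as were 93.3% of all tested genes. Of 12 tested cytokine and response genes downstream of such receptors 10 were called higher, against 34.1% of all tested genes. Relative to leukocyte RNA 1 was higher and 4 were lower (0.718% and 93.3% of all tested genes). Il23a (-1.61 ± 0.636, adjusted p = 0.0523) and Ptgs2 (1.29 ± 0.723, adjusted p = 0.149) were not called. Whether any of these genes answered to the receptors was not tested. The chemokine gene Ccl2 reached 44.1 ± 18.2 normalised CPM in AP, against 0.573 ± 0.423 in controls. Il1b rose by 4.71 ± 0.632 on the log2 scale. For Il10 the fit gave 5.30 ± 0.836, a size that rests on 1, 0 and 0 counts in control replicates 1 to 3.

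Other C-type lectin receptors moved over a wider range. Of 18 tested, 13 were called higher and none lower (34.1% and 30.5% of all tested genes). Relative to leukocyte RNA 2 were higher and 13 were lower (0.718% and 93.3% of all tested genes). The median log2 fold change with TMM was 2.44, and 10 of 28 found in the table did not pass the filter. Olr1, which encodes the scavenger receptor LOX-1, rose by 6.65 ± 0.506 and Cd302 by 3.24 ± 0.225. Clec14a, an endothelial gene, stood at -0.40 ± 0.166 (adjusted p = 0.0613). The dendritic lectin genes Cd207 and Cd209 had 0 or 1 count in every library. All 12 Toll-like receptor and partner genes were called higher, with a median of 4.43, or 3.87 with Tlr10, which had no control count, at its bound. Relative to leukocyte RNA 2 of the 12 were higher and 4 were lower. Tlr8 rose by 5.32 ± 0.204, Tlr2 by 5.45 ± 0.249 and Tlr7 by 4.85 ± 0.223.

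**Figure D4:**
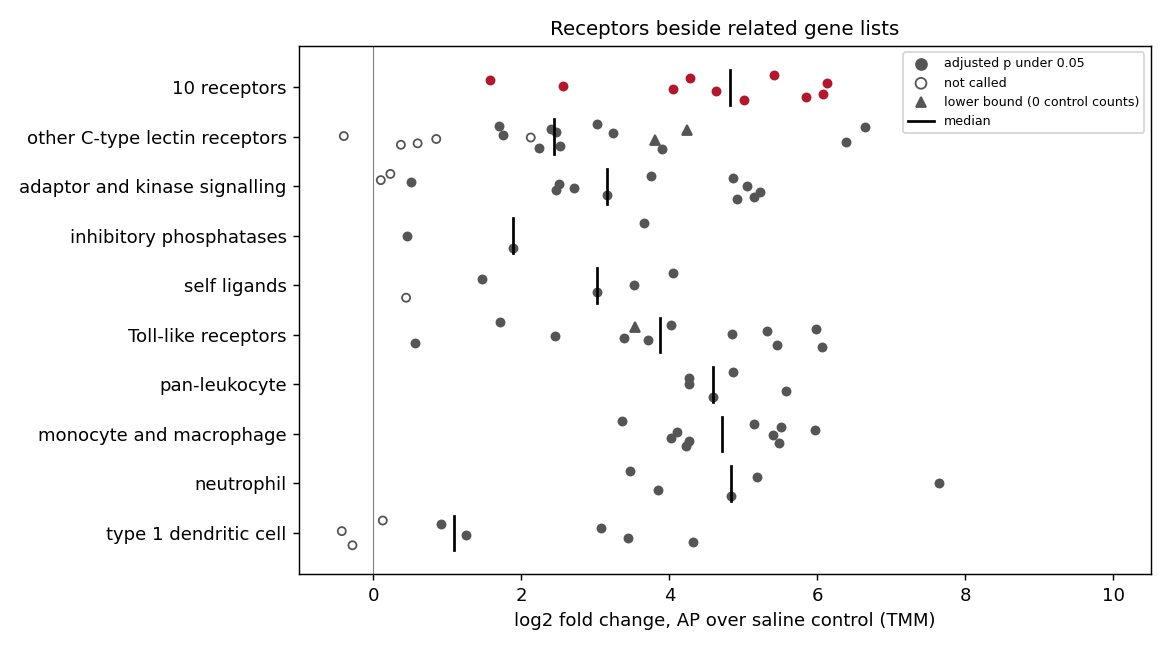
log2 fold change (TMM), AP over saline control, of every tested gene of the 10 receptors and of related lists; filled points passed an adjusted p of 0.05, open points did not, triangles are lower bounds of genes with no control count, and vertical bars are medians with those genes at their bound. The receptors centre on 4.82, beside 4.83 for the neutrophil, 4.71 for the monocyte and macrophage and 4.58 for the pan-leukocyte list, and the type 1 dendritic cell list centres on 1.09.

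Position on the chromosome was compared by order alone, as RefSeq lists protein-coding genes. In the cluster that runs from Clec4a1 to Clec4e all 7 genes rose. Clec4a2 and Clec4b2, which lie between the receptors described here, rose with them (Clec4b2 with 216 counts in AP and none in controls, at least 13.9-fold). C3ar1, the receptor gene for complement C3a nearby, rose by 5.92 ± 0.283. Its neighbours Foxj2 (-0.09 ± 0.145, adjusted p = 0.614) and Necap1 (-1.02 ± 0.121, adjusted p = 0.000124) did not rise with TMM, and Necap1 fell. With library totals Foxj2 was at 2.09 and Necap1 at 1.16, where the median of all tested genes was 2.25.

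The second cluster was mixed. Clec12a and Clec7a rose strongly and Clec9a between them little. Clec1a, which lies between Clec9a and Clec7a, was not called (0.60 ± 0.287, adjusted p = 0.098), nor was Clec12b (2.13 ± 0.959, adjusted p = 0.0817). Olr1, next to Clec7a on the other side, rose by 6.65, and Gabarapl1, a few genes on, fell by 1.40 ± 0.136 (at 0.78 with library totals).

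**Figure D5:**
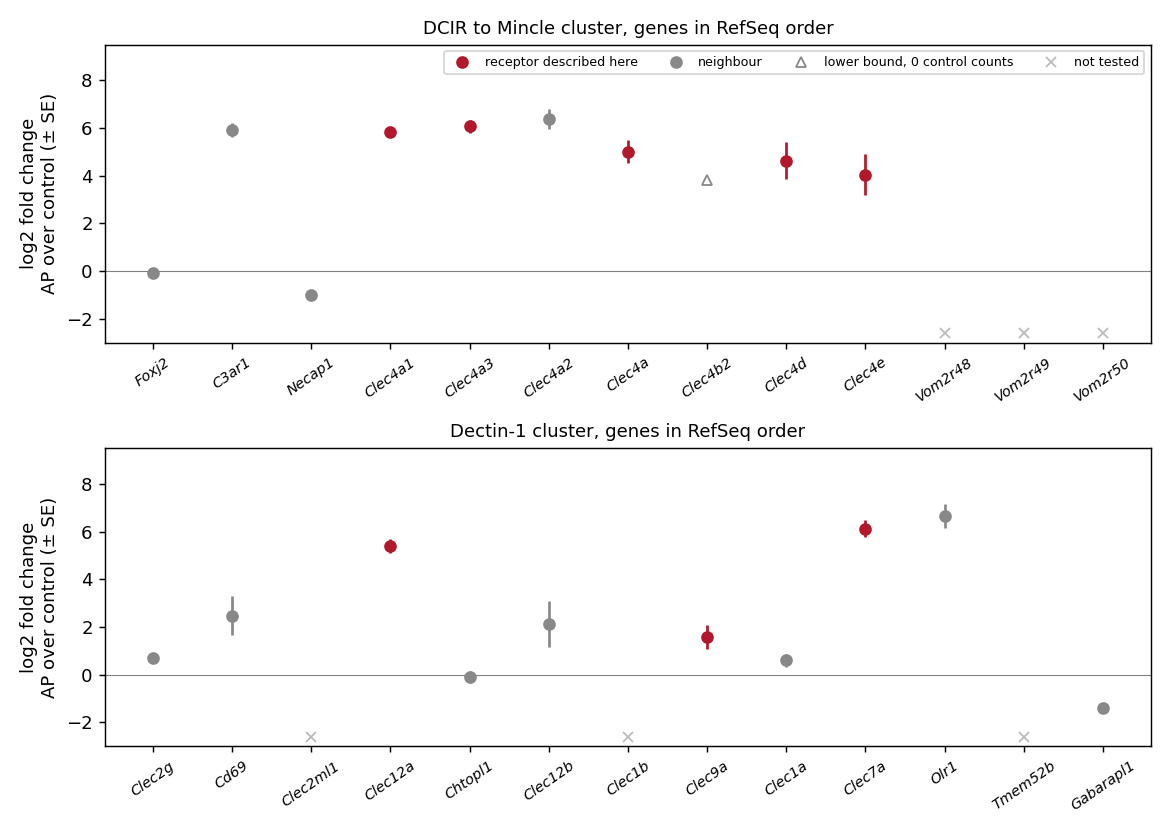
log2 fold change (TMM, bars of 1 SE), AP over saline control, of protein-coding genes in RefSeq order around both receptor clusters, with the receptors in red, neighbours in grey, a triangle for a lower bound and crosses for genes not tested. From Clec4a1 to Clec4e every gene lies above 3.5, while from Clec12a to Clec7a values run between -0.11 for Chtopl1 and 6.13 for Clec7a.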

How the data were processed

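The deposited table holds whole-number read counts per gene, not normalised, for 6 samples. Per the submitters' processing notes, the authors used FastQC, STAR, featureCounts and DESeq2 with the rat build mRatBN7.2; the sources used here give no versions, annotation release, strand setting or handling of reads with several matches. Of 23096 rows, 3110 had no gene name and were left out (1.41% to 2.10% of counts in AP, 5.48% to 7.69% in controls). Rows sharing a symbol were summed.

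All 6 samples entered edgeR's quasi-likelihood fit (version 4.0.16, R 4.3.3) with TMM scaling, the default filter, no covariate and Benjamini-Hochberg adjustment over all tested genes. Each standard error is the size of the log2 fold change divided by the root of its F statistic. The main fit alone was tried on simulated counts, with far fewer genes changed than were called here. That trial does not test the scaling under changes as broad as these. For single values the test was an exact permutation over samples, two-sided. Within a group every pair of libraries differed beyond sampling noise (mean chi-square per gene 42.5 to 183, 10570 genes), and none was merged. Alternatives were other scalings, filters and tests (DESeq2 1.42.0, limma 3.58.1), a replicate block and each library left out.

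All 10 receptors are named; from other lists the 3 tested genes with the lowest p, the signalling and phosphatase genes, and others chosen after their values were seen. Of the signalling list, 1 gene is not reported here. The receptors and lists were chosen with earlier results of these data known. Promoter windows were matched by symbol.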

Additional observations from a re-analysis of the deposited data

How the results depend on the processing

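Of the 10 receptors, 9 kept their direction and their call in every alternative that gave a value, and the count of receptors called higher was 9 or 10 throughout. The exception was Clec9a, which limma-voom did not call (log2 fold change 1.42, adjusted p = 0.155), whose call also ended in 3 of the 6 fits with 1 library left out, and whose values ran from 0.91 to 1.84 when 1 library was left out. For Clec4e without control replicate 3 no fitted fold change is given, only the lower bound of 33.7-fold. Library totals raised all 10 log2 fold changes, to between 3.75 (Clec9a) and 8.30 (Clec7a). Genes called over the whole table numbered 8552, 7653 to 8063 without 1 library and 7839 to 12252 under the other settings.

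Relative to the pan-leukocyte list, leave-one-out values ran from -2.73 to -1.44 for Clec5a, 0.60 to 1.16 for Clec12a and -0.73 to -0.17 for Clec10a, which was called lower without AP replicate 1 (adjusted p = 0.0188). With monocyte and macrophage counts in their place the differences were 0.85 for Clec7a, 0.12 for Clec12a and -1.01 for Clec10a. The cause was not tested.

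As CPM of named genes the summed receptors were 170-fold higher in AP, and 114-fold higher with the acinar list out of the denominator. Per pan-leukocyte count the ratio of AP to controls was 1.51, and 0.96 per monocyte and macrophage count. The activating over inhibitory ratio in AP was 0.629 times that in controls, and 0.188 times without Clec7a. The latter value rests on few control counts, many of them from Clec9a.

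The replicate number was shared by the groups in the labels, but same-numbered samples did not deviate together (correlations of -0.029, 0.033 and -0.107), so it was not used to pair them. With the number as a block 10 receptors were called, as without it, and 7904 genes in all. Control counts of 7 to 39 limit the precision for Clec4a, Clec4d, Clec4e, Clec5a, Clec7a, Clec9a and Clec12a.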

Other observations

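Among 10369 tested genes of moderate or high level (mean logCPM from 2 upwards), the 5 whose log2 CPM was most like the mean of the 10 receptors across the 6 libraries were Ehbp1l1, Abcc5, Fblim1, Rnf145 and Prrx1 (Pearson r of 0.9991 to 0.9996). The 6 libraries fall into 2 separate groups, and 376 genes reached an r above 0.99, so r here is a description of the difference between the groups. Prrx1, a transcription factor gene of mesenchymal cells, had 65.7, 53.8 and 47.0 normalised CPM in AP replicates 1 to 3, against 5.09, 4.29 and 6.59 in control replicates 1 to 3.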
